A study of Mus musculus with 8 samples.

Results

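The resident Folr2/Lyve1/Timd4 macrophages of the mouse heart were followed through pressure overload in single-cell RNA sequencing (scRNA-seq) libraries. After the study's filters on cells, a cell counted as a member when the summed unique molecular identifiers (UMIs, counts of captured transcripts) of C1qa, C1qb and C1qc reached 10, those of Lyve1, Folr2, Timd4 and Cd163 reached 2, and Cd3e and Cd79a were at 0. Members were therefore chosen by 9 genes, and the values of those genes are given as a description only. The rule found 3433 members among 27053 cells kept, which is 12.7% of them. A further 1342 cells passed the same C1q cut with 0 or 1 UMI of the 4 resident genes and are called the other C1q-positive cells.

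All mice were wild-type male C57BL/6J, 8 weeks old at surgery, and had either sham surgery or transverse aortic constriction (TAC), a ligature around the aortic arch that loads the left ventricle. Hearts were taken 2, 4 or 6 weeks after TAC, and these groups are called TAC-2w, TAC-4w, TAC-6w. The interval for sham was not given in the labels. There was 1 scRNA-seq library and 1 spatial section per condition, and the number of hearts in a library is not given in the sources used here. The libraries held 86671674 UMIs in 10275 barcodes for sham, 78587992 in 7924 for TAC-2w, 48278486 in 8420 for TAC-4w and 28793316 in 5854 for TAC-6w. By the labels, the TAC-2w scRNA-seq library was batch 1, TAC-4w batch 2, and both TAC-6w and sham batch 3, whereas the run names used in the study join sham with TAC-2w. The TAC-2w and sham sections were batch 1, the TAC-4w section batch 2 and the TAC-6w section batch 3. Batch and condition cannot be told apart for the TAC-2w and TAC-4w libraries or for the TAC-4w and TAC-6w sections, each of which differs in batch from its sham. Nuclei are named in the labels and dissociated cells in the methods; barcodes are called cells in what follows, and which preparation was used is not settled here. With a single library per condition no test between conditions was made, and all intervals are 95% intervals that cover counting error only. Between 9 and 30 barcodes were shared by any 2 libraries, and 1 barcode was a member in both TAC-2w and TAC-6w.

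Macrophages seeded into the heart before birth persist by local division and carry scavenger receptors such as Lyve1, the folate receptor Folr2, the phosphatidylserine receptor Timd4 and the haemoglobin-haptoglobin receptor Cd163. They are known for clearing dying cells and debris and for supplying trophic factors. Macrophages that arise from circulating monocytes carry the chemokine receptor Ccr2 and, in many cases, high levels of MHC class II, the molecules that present peptides to T cells. C1q, the first component of the classical complement pathway, is made by both.

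Transcripts of pan-macrophage genes were present in the members of every library. Adgre1, the gene of the F4/80 antigen, had 264, 296, 235 and 197 UMIs per 1000000 (CPM) in members, in the order sham and then 2, 4 and 6 weeks of TAC that is kept for all such values, against 0.964 to 6.92 CPM in the cells with a C1q sum under 3. Of the 12 pan-macrophage markers none was at 0 in any library. Lyve1, a hyaluronan receptor shared with lymphatic endothelium, had 846, 1010, 349 and 621 CPM in members and 2.85, 4.46, 2.27 and 6.12 CPM in the other C1q-positive cells. Folr2 had 818, 906, 341 and 794 CPM in members, Timd4 113, 114, 67.7 and 77.8 CPM, and Cd163 684, 874, 644 and 711 CPM. The members of TAC-4w were lowest for all 4 genes that chose them. Lymphatic endothelial markers summed to at most 9.57 CPM in the members of any library, with Pdpn or Prox1 highest.

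A UMI of a resident gene was not proof of expression, since free RNA enters droplets. Lyve1 was detected in 71.5% of sham members, 75.0% in TAC-2w, 33.3% in TAC-4w and 60.5% in TAC-6w. Cells that met a fibroblast rule carried a Lyve1 UMI in 5.19%, 5.99%, 0.815% and 1.54% of cases, with median depths of 10627, 12665, 13723.5 and 6239 UMIs against 8234, 9707, 6642 and 4293 UMIs in members. Timd4 was detected in 47.0%, 50.5%, 23.5% and 24.8% of members and in at most 0.523% of fibroblast-rule cells. B-cell-rule cells carried Timd4 in 2.54%, 1.89%, 0% and 0.147% and Lyve1 in 5.08%, 8.81%, 0.158% and 0.737% of cases, at median depths of 3322.5, 3841, 4491 and 2047 UMIs. With members thinned to 2000 UMIs, Timd4 was detected in 18.1% (16.1% to 20.2%), 19.1%, 8.0% (2.22% to 19.2%) and 15.7% (12.6% to 19.2%), and Lyve1 in 53.7%, 57.1%, 22.0% and 46.1%, so that for Timd4 the intervals of TAC-4w and TAC-6w overlapped that of sham. Without thinning, all 4 resident genes were detected together in 31.7% of sham members and 38.3% of TAC-2w members, but in 7.84% of TAC-4w members and 13.2% of TAC-6w members. In TAC-4w, 41.2% of members rested on UMIs of a single resident gene, against 13.3% in sham, 11.3% in TAC-2w and 20.5% in TAC-6w.

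Members made up most of the C1q-positive cells in 3 libraries and a minority in TAC-4w. In sham 1387 of 1901 C1q-positive cells were members, a share of 73.0% (70.9% to 75.0%, exact Clopper-Pearson interval), and in TAC-2w 1474 of 1806, a share of 81.6% (79.8% to 83.4%). The TAC-4w library had 51 members among 149 C1q-positive cells, a share of 34.2% (26.7% to 42.4%), and TAC-6w 521 among 919, a share of 56.7% (53.4% to 59.9%). None of these intervals overlapped another. As a share of all cells kept, members were 16.9% in sham, 22.7% in TAC-2w, 0.756% in TAC-4w and 9.34% in TAC-6w. C1q-positive cells as a whole were 23.1%, 27.8%, 2.21% and 16.5% of cells kept. The TAC-4w library held 2530 cells that met a B cell rule against 236 in sham, and 368 fibroblast-rule cells against 4586. Whether tissue sampling or enrichment differed for that library is not known here, which limits what its shares can mean. Depth differed as well, with medians of 8234, 9707, 6642 and 4293 UMIs per member. With each cell thinned to 2000 UMIs the shares were 58.3%, 66.1%, 21.3% and 48.1%, in the same order.

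**Figure D1:**
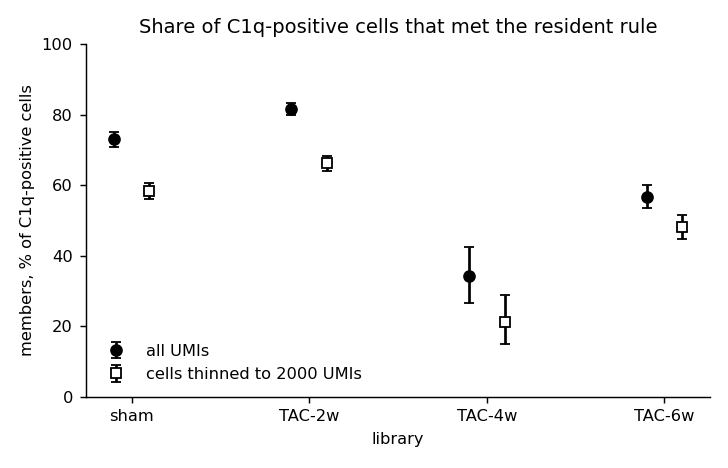
Members as a percentage of C1q-positive cells (vertical axis) in the 4 libraries (horizontal axis), with all UMIs (filled circles) and with each cell thinned to 2000 UMIs (open squares); bars are exact 95% intervals for counting error. TAC-4w was lowest at 34.2% and TAC-2w highest at 81.6%, and thinning lowered every share and kept the order.

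The resident genes marked a gradient that ran across the cut of the rule. For this gradient, MHC class II stands for the summed UMIs of H2-Aa, H2-Ab1, H2-Eb1 and Cd74. Sham cells just outside the cut, with 1 resident UMI, had 34047 CPM of MHC class II genes. They had 190 CPM of F13a1, the A subunit of coagulation factor XIII. Those just inside, with 2 UMIs, had 34226 and 396 CPM. At 10 or more resident UMIs the sums were 18384 CPM of MHC class II genes and 1467 CPM of F13a1. Ccr2 went from 232 CPM in sham cells with 0 resident UMIs to 28.3 CPM at 10 or more, and Cbr2, a carbonyl reductase, from 33.9 to 834 CPM. The same ends of the gradient were seen in TAC-2w and TAC-6w. In TAC-4w the cells with 10 or more resident UMIs numbered 14, or 9.40% of C1q-positive cells, against 47.3% in sham, 60.6% in TAC-2w and 21.8% in TAC-6w. Those 14 cells had 27727 CPM of MHC class II genes and 298 CPM of Cbr2. The TAC-4w members with 4 to 9 resident UMIs, 23 cells, had 51754 CPM of MHC class II genes, against 28046 CPM at the same score in sham. The scores are raw UMI counts, and median depths per member were 8234, 9707, 6642 and 4293 UMIs. An equal score is therefore not an equal level in different libraries. The part of depth in the shares and levels by score was not tested.

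**Figure D2:**
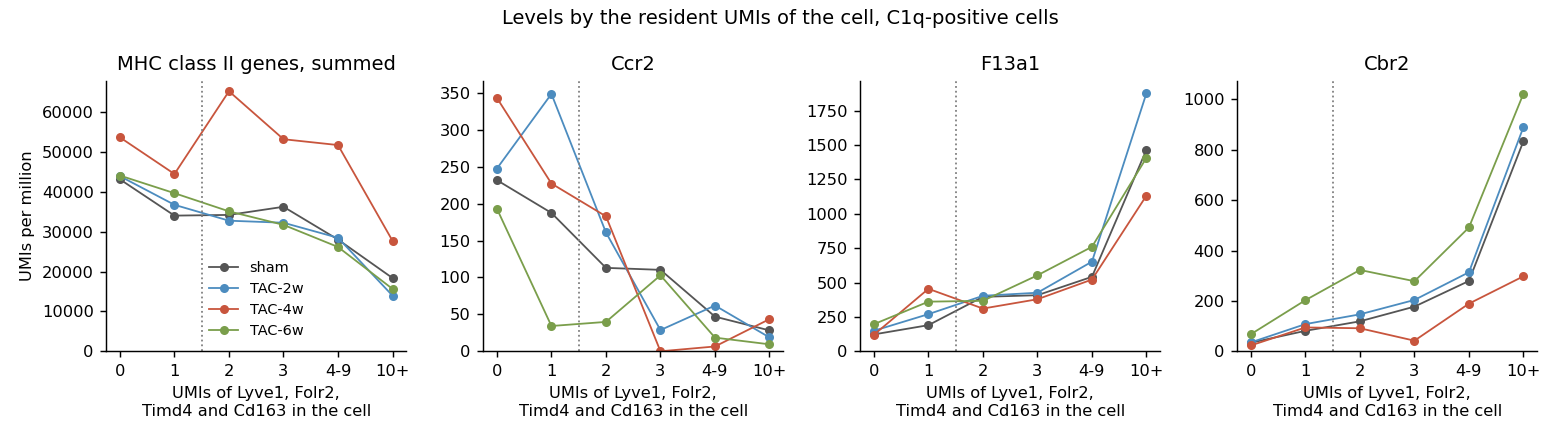
UMIs per 1000000 (vertical axes) of MHC class II genes (H2-Aa, H2-Ab1, H2-Eb1 and Cd74, summed), Ccr2, F13a1 and Cbr2 in C1q-positive cells. Cells are grouped by their UMIs of Lyve1, Folr2, Timd4 and Cd163 (horizontal axes), for each library. The dotted line is the cut of the rule. F13a1 and Cbr2 were highest and MHC class II lowest at 10 or more resident UMIs in every library, and the MHC class II curve of TAC-4w lay above the others.

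Within each library, members were then compared with the other C1q-positive cells over the genes that the rule did not read. Counts were summed per library and class, and edgeR's quasi-likelihood test used the 4 libraries as blocks, so that the p-values measure the spread between these libraries alone. Of 10214 genes tested, 702 (6.87%) were higher in members and 788 (7.71%) lower at a Benjamini-Hochberg adjusted p under 0.05. Without TAC-2w 316 were higher and 328 lower, without sham 377 and 472, without TAC-6w 420 and 612, and without TAC-4w 858 and 1152. The genes most specific to members were Fcna (ficolin A, a soluble lectin that activates complement), Cxcl13 (a B cell chemoattractant), the complement component C6, the gelatinase Mmp9, the endothelin receptor Ednrb, Ltc4s (leukotriene C4 synthase), the eosinophil chemoattractant Ccl24, Chp2, Cbr2 and Calml4. Fcna had 104, 137.5, 8.12 and 77.8 CPM in members against 1.43, 1.71, 0 and 4.29 CPM in the others, a log2 fold change of 5.63 ± 0.24 (SE, edgeR adjusted p = 1.85e-08). The summed level of Fcna was higher in members of each library, but in TAC-4w it rested on 3 UMIs against 0. Ltc4s had 248, 337, 86.6 and 350 CPM in members against 20.2, 18.9, 11.4 and 37.4 CPM, and Cbr2 651, 762, 206 and 700 CPM against 46.1, 57.2, 31.8 and 99.2 CPM. Their log2 fold changes were 3.54 ± 0.15 and 3.27 ± 0.18.

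The level of some of these genes rested on few cells. C6 was counted 109, 118, 4 and 23 times in members and 0, 0, 0 and 2 times in the others, so that its fitted fold change, by which it was ranked and plotted, depends on the prior count and is no measure of size. For Mmp9, 94.4% of the TAC-4w UMIs lay in 1 cell, whereas 64 sham members, or 4.61%, carried at least 1 UMI. Without the TAC-4w library its log2 fold change was 4.28, and it was not tested with cells thinned to 2000 UMIs or with cells of many neutrophil or red blood cell UMIs left out. Cxcl13 was detected in 6.13% of sham members, 3.53% in TAC-2w and 3.26% in TAC-6w, and all 15 of its TAC-4w UMIs were in 1 cell. Fcna, by contrast, was detected in 30.7%, 38.6%, 5.88% and 18.8% of members, and with members thinned to 2000 UMIs in 12.3%, 17.6%, 2.00% and 11.2%.

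The genes most depleted from members were Ear2 (an eosinophil-type ribonuclease of monocytes), the monocyte antigen Ly6c2, Itgax (CD11c), the macrophage elastase Mmp12, the protease Napsa, Sh2d1b1, the potassium channel Kcnn4, AA467197, the lectin receptor Klrb1b and Gpr141. Ear2 and Ly6c2 belong to families of near-identical genes, so their counts are uncertain. Mmp12 had 10.2, 14.8, 2.71 and 3.18 CPM in members against 136, 217, 258 and 100 CPM in the others, a log2 fold change of -4.06 ± 0.16 (edgeR adjusted p = 1.05e-08). Itgax had 2.08, 2.56, 5.41 and 0.397 CPM against 31.8, 38.7, 44.3 and 25.1 CPM. These 20 genes were chosen to have the same direction in every library.

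**Figure D3:**
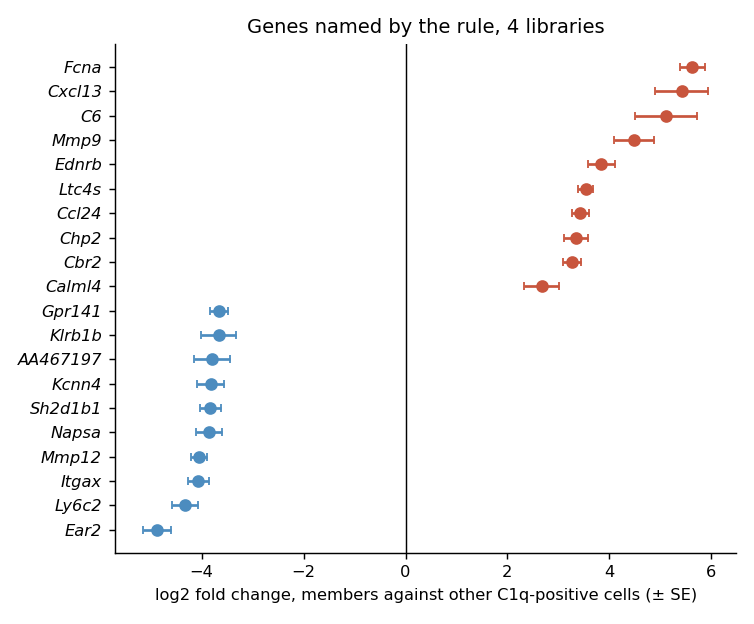
Log2 fold change (horizontal axis, ± SE) of members against the other C1q-positive cells for the 10 genes furthest in each direction (vertical axis) with the same sign in all 4 libraries. Fcna was highest at 5.63 and Ear2 lowest at -4.88.

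Promoter sequences of 3 such genes and of Timd4, from the rule, are shown because they hold the letters of a binding motif of MAF or PU.1, transcription factors that shape macrophages. They are the 250 bases before the transcription start on the strand of the gene (RefSeq, GRCm38.p6), with the motif in capitals. Timd4 (chr11:46810549-46810798, plus strand) and Fcna (chr2:25627975-25628224, minus strand) hold the MAF half-site TGCTGAC, Timd4 on the other strand. Ly6c2 (chr15:75111972-75112221, minus strand) and Mmp12 (chr9:7344147-7344396, plus strand) hold the PU.1 motif GAGGAAGT, Mmp12 on the other strand.
Timd4: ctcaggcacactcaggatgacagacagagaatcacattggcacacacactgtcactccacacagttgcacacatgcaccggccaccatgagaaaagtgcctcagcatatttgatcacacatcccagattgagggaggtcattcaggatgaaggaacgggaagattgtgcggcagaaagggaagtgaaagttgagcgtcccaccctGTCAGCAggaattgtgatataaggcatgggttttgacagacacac
Fcna: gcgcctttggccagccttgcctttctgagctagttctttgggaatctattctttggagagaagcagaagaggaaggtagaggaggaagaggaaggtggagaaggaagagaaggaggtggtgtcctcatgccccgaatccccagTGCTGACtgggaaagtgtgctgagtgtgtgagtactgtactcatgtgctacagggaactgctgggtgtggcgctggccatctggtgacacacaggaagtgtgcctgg
Ly6c2: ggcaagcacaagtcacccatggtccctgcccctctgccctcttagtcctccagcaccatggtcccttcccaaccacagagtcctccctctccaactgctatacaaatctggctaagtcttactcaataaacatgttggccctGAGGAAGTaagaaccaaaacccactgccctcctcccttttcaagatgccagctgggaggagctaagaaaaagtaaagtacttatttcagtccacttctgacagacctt
Mmp12: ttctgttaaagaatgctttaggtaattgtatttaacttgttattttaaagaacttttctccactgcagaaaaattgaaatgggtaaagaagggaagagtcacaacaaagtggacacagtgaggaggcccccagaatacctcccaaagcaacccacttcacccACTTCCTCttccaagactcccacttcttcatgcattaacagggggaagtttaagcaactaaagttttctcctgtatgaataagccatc
The motifs begin 45, 107, 108 and 88 bases before the start. Both strands were searched, and neither motif holds the other. RefSeq promoters were found for 534 of the 702 genes higher in members and for 588 of the 788 lower. TGCTGAC was in 6.28% of 732 promoters of the higher genes and 2.18% of 781 promoters of the lower, against 3.67% of the promoters of all genes tested and 4.67% of 32851 promoters in all. GAGGAAGT was in 4.23% and 6.02%, against 3.41% and 3.202%. These shares are descriptive.

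Scavenger and lectin receptors were the list that leaned most evenly towards members. Of 15 tested, 11 were higher and 0 lower, with a median log2 fold change of 0.89 against 0.01 over all genes tested. Vsig4, a receptor for complement C3 fragments, had 229, 198, 75.8 and 84.9 CPM in members against 20.7, 46.3, 13.6 and 11.03 CPM (log2 fold change 2.67 ± 0.20). Mrc1, the mannose receptor CD206, had 903, 1088, 817.5 and 648 CPM against 333, 388, 405 and 297 CPM (1.199 ± 0.101). Colec12, Stab1, Fcgrt, Mgl2, Siglec1, Msr1, Cd36 and Clec10a were also higher. Clec10a and Cd36 were not higher in TAC-4w, where members had 21.7 and 70.4 CPM against 29.5 and 70.4 CPM in the others. The call for Cd36 was lost without sham or without TAC-2w.

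Secreted factors and the enzymes listed with them were higher for 17 of 23 and lower for 4, with a median log2 fold change of 1.06. F13a1 had 1168, 1609, 709 and 1003 CPM in members against 140, 186, 160 and 235 CPM (2.55 ± 0.17, edgeR adjusted p = 7.62e-07). Igf1, a growth factor that acts on cardiomyocytes, had 237, 309, 70.4 and 217 CPM against 96.2, 128.5, 42.0 and 135 CPM (0.99 ± 0.12). Gas6, a bridge between dying cells and the receptors Axl and Mertk, had a log2 fold change of 1.78 ± 0.09, Pf4 of 1.65 ± 0.13, Selenop of 1.06 ± 0.09 and Apoe of 0.54 ± 0.05. Ccl8, a monocyte chemoattractant, was higher at 4.38 ± 0.48, but in TAC-4w it had 10.8 CPM in members and 19.3 CPM in the others. Vegfa (-1.59 ± 0.19), Pdgfb, Cxcl16 and Tgfb1 were lower, the last a call lost when sham, TAC-2w or TAC-6w was left out.

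Iron and haem handling had 8 of 16 genes higher and 2 lower, with a median of 0.40. The iron exporter Slc40a1 had 43.8, 51.1, 5.41 and 27.0 CPM in members against 5.94, 8.91, 1.14 and 5.51 CPM (2.54 ± 0.17). The haem-degrading enzymes Hmox1 (1.04 ± 0.10) and Blvrb (1.04 ± 0.10) and the transferrin gene Trf were higher, and the ferritin heavy chain Fth1 was lower (-0.38 ± 0.045). Of the transcription factors 4 of 20 were higher and 5 lower, with a median of -0.05. Maf (1.08 ± 0.11), Klf2, Klf4 and Tcf4 were higher, and Pparg (-1.73 ± 0.20), Id3, Id2, Nr4a1 and Irf8 were lower. Clearance of dying cells was mixed, with 5 of 19 genes higher, among them the cholesterol exporter Abca1 and the bridging protein Pros1, and 4 lower, among them Axl and Cd300lf, and a median of -0.06. Interferon-induced genes had 4 of 19 higher, led by Ifitm3 (0.80 ± 0.07), and 0 lower, with a median of 0.14.

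MHC class II, monocyte, inflammatory and lipid-associated genes leaned the other way. Of 10 genes of the MHC class II list 7 were lower in members and 0 higher, with a median of -0.89. H2-Aa, an MHC class II alpha chain, had 4211, 3192, 8386 and 3914 CPM in members against 7275, 7588, 8882 and 7305 CPM (-0.83 ± 0.14, edgeR adjusted p = 0.00114). The classes differed least in TAC-4w, and Ciita, the transactivator of the locus, was the other way round there at 111 against 86.3 CPM. Of the monocyte genes 6 of 13 were lower and 0 higher, with a median of -0.47, and Ccr2 had 39.9, 30.8, 46.0 and 25.0 CPM in members against 220, 278, 329 and 156 CPM (-2.87 ± 0.13). Inflammatory genes were lower for 12 of 19, with a median of -0.74. Il1b, the gene of interleukin 1 beta, had 245, 341, 292 and 204 CPM against 1029, 1717, 503 and 852 CPM (-1.94 ± 0.20). Ccl2, a monocyte chemoattractant, was the 1 inflammatory gene higher in members (0.35 ± 0.09, adjusted p = 0.0163), a call lost when sham, TAC-2w or TAC-6w was left out. Of the lipid-associated and profibrotic genes 9 of 17 were lower, among them Gpnmb (-2.85 ± 0.29), Spp1 (-2.17 ± 0.18) and Fn1 (-1.85 ± 0.13), with a median of -0.61. Fabp4, also an endothelial marker, was higher at 0.63, but was at -0.23 with predicted doublets removed and at -0.47 with cells thinned to 2000 UMIs.

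Stress and cell-cycle lists had no gene higher in members. Over all genes tested 6.87% were higher, so 0 in lists of 12 to 20 genes is near that share. Immediate early genes had 0 of 20 higher and 6 lower, where 7.71% of all genes tested were lower (median -0.11), heat shock genes 0 of 12 higher and 1 lower (-0.16), and proliferation genes 0 of 15 higher and 2 lower (-0.22). Mki67, a marker of dividing cells, had 135, 140, 0 and 22.6 CPM in members against 131, 124, 133 and 38 CPM in the others. Among 12 pan-macrophage markers (median -0.07) Csf1r, Itgam and Lyz2 were higher, calls lost when sham or TAC-2w was left out, and Cx3cr1 and Ptprc were lower. Of the markers of other cell types, fibroblast (6), B cell (3), platelet (2), cardiomyocyte (6), red blood cell (5) and lymphatic endothelial genes (1) had no gene that passed the test. Endothelial markers had Egfl7 and, with the exceptions given, Fabp4 higher of 4, neutrophil markers Retnlg higher of 4 (a call lost without TAC-4w or TAC-6w), T and NK cell markers Ccl5 lower of 2, and dendritic cell markers Flt3 lower of 1.

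**Figure D4:**
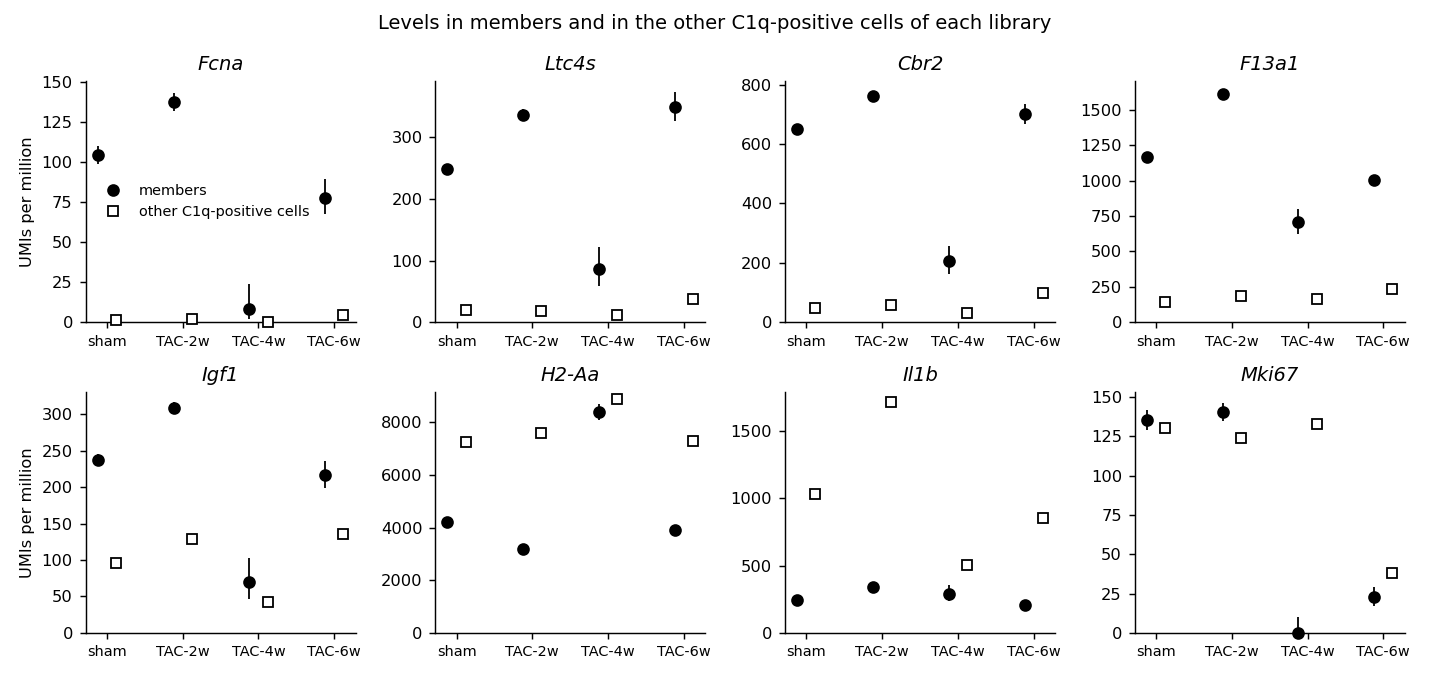
UMIs per 1000000 (vertical axes, from 0) of 8 genes in members (filled circles, with exact 95% Poisson intervals for counting error) and in the other C1q-positive cells (open squares) of the 4 libraries (horizontal axes). Fcna, Ltc4s, Cbr2 and F13a1 were higher in members of each library, Il1b was lower in each, and TAC-4w members had 8386 CPM of H2-Aa against 4211 in sham members and 0 CPM of Mki67 against 135.

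For change across the libraries, the summed UMIs of each gene in the members of a TAC library were compared with sham as a ratio of CPM, with an exact conditional binomial interval. A gene entered with 50 or more UMIs in at least 1 of the sums, and genes past 1.5-fold were counted. All comparisons share the sham library. TAC-2w members were closest to sham. Of 10708 genes 155 (1.45%) were higher and 268 (2.50%) lower, and the median log2 ratio was 0.01. Without cells that carried fibroblast UMIs 206 were higher and 80 lower. The lower genes numbered 159 with predicted doublets removed and 76, of 5221 tested, with cells thinned. Of the 10 genes furthest towards members, 7 had a ratio above 1 and 3 below, from 0.457 for Cxcl13 to 1.37 for Ednrb. Among genes higher in members than in the other C1q-positive cells, the ratio was 0.862 (0.820 to 0.907) for Vsig4, and there were ratios of 1.38 (1.35 to 1.41) for F13a1, 1.36 (1.299 to 1.42) for Ltc4s, 1.32 (1.23 to 1.41) for Fcna, 1.302 (1.24 to 1.36) for Igf1 and 1.17 (1.14 to 1.204) for Cbr2. None of these reached 1.5-fold. Summed over its 10 genes, the MHC class II list was at 0.796 times sham (0.792 to 0.800), and H2-Eb1 had a ratio of 0.713. In the other C1q-positive cells H2-Eb1 had a ratio of 0.981.

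Few genes of the functional lists passed 1.5-fold in TAC-2w members. The scavenger, secreted, clearance, iron, transcription factor, MHC class II, heat shock and pan-macrophage lists had 0 genes past it in either direction. Among inflammatory genes 2 of 20 were higher, Il1a at 2.40 (1.73 to 3.37) and Cxcl3, and Ccl5 was lower. Interferon-induced genes had Isg15 at 1.54 (1.39 to 1.71) and Cxcl9 higher (Cxcl9 at 0.276 with cells thinned) and Ifit1 lower at 0.601 (0.532 to 0.679), of 19. Immediate early genes (of 20) and lipid-associated genes (of 16) had 1 each way, monocyte genes 2 of 12 lower and proliferation genes 1 of 15 lower, Ube2c. Some lists of markers of other cell types moved more, with 4 of 6 endothelial and 2 of 6 cardiomyocyte markers higher. Lower were 5 of 5 red blood cell genes, 2 of 4 neutrophil markers, and the 1 platelet and 1 lymphatic marker compared. T and NK cell markers had 1 of 3 higher and 2 lower. Of 6 fibroblast, 2 B cell and 1 dendritic cell markers compared, 0 were past 1.5-fold. The part of RNA of other cell types in the other ratios was not tested. Cxcl13 was lower at 0.457 (0.430 to 0.485), from 230 to 105 CPM. By rank, the genes furthest from sham with a level in members at least 2 times that in cells with a C1q sum under 3 were Zfp993, Hist1h2ap, Il1a, Dnph1, Cxcl9 and Tnfrsf25, higher, and Mucl1, Gm42047, Ptger2, Cxcl13, Gm47761 and E230001N04Rik, lower. A single cell held 98.5% of the 133 Mucl1 UMIs of sham members, and 1 cell 48.0% of the 584 Cxcl9 UMIs of TAC-2w members. Without the condition on other cells, Cldn5, Fmod, Angptl7, Epyc and Ecrg4 led. With predicted doublets removed, Cldn5 went from 20.2 to 7.39, Fmod from 17.4 to 1.56, Angptl7 from 5.33 to 2.59 and Ecrg4 from 3.95 to 1.445. With cells that carried fibroblast UMIs left out, Fmod was at 1.52 and Ecrg4 at 0.484. Cldn5, an endothelial tight junction gene, went from 4 UMIs to 100, in 25 members.

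The comparison of TAC-4w members with sham rested on 51 cells and 369425 UMIs against 1387 cells and 12956588 UMIs. Of 10257 genes 1644 (16.0%) were higher and 2893 (28.2%) lower, many on a handful of UMIs. The 6 genes ranked highest, Col27a1, Ptger2, Gm16196, Prickle3, Edil3 and Invs, had 9 to 14 UMIs in TAC-4w members, and the 6 ranked lowest had 0. The counts below therefore keep the genes with at least 20 UMIs expected in each sum at their pooled rate, a filter added after the data were seen. It left 2465 genes, of which 203 (8.24%) were higher and 470 (19.1%) lower, with a median log2 ratio of -0.13. When the interval of the ratio also had to lie beyond 1, TAC-4w had 695 genes higher and 886 lower of 10257, and TAC-6w 451 and 1768 of 10254, so that the order of TAC-4w and TAC-6w by genes past 1.5-fold depended on the rule. The filter on expected UMIs left 155 (1.45%) higher and 268 (2.50%) lower of 10708 genes in TAC-2w.

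The 10 genes of the MHC class II list summed to 2.01 times (1.98 to 2.04) their sham level in TAC-4w members, 46413 against 23051 CPM. In the cells with a C1q sum under 3 the same sum was 8390 against 1152 CPM, in a library with 2530 B-cell-rule cells, and its part in the members was not tested. Of 51 TAC-4w members 14 had 10 or more resident UMIs, against 900 of 1387 in sham. At that score H2-Aa, H2-Ab1, H2-Eb1 and Cd74 summed to 27727 CPM in TAC-4w against 18384 in sham. At 4 to 9 resident UMIs they summed to 51754 against 28046 CPM. The part of the score in the ratio of 2.01 was not tested. Of 8 genes of the list compared, 6 were higher and Cd83 was lower. Cd74, the invariant chain, had 19982 against 9544 CPM (2.09, 2.05 to 2.14), and H2-DMb1, which loads peptides, 479 against 163 CPM (2.94, 2.51 to 3.43). In the other C1q-positive cells Cd74 had a ratio of 1.38 and H2-DMb1 of 1.47. Of 17 transcription factors 3 were higher, among them Cebpa, a regulator of myeloid identity, at 1.84 (1.39 to 2.41), and 4 were lower, Klf2, Klf4, Id3 and Nr4a1. Among genes with a level in members at least 2 times that in cells with a C1q sum under 3, Slc15a3, Mpeg1, Plekho1, Kdm7a and Dleu2 followed H2-DMb1 as the 6 highest, at 2.30 to 2.64. In the cells with a C1q sum under 3, the ratios of these 6 genes were 2.375 to 11.9, and for each gene above the ratio in members.

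Many secreted factors and some scavenger receptors were below sham in TAC-4w members. Secreted factors had 9 of 18 lower and Cxcl16 higher, and scavenger receptors 5 of 13 lower and 0 higher, with median log2 ratios of -0.60 and -0.32. Ccl8 had 4 UMIs, 10.8 against 375 CPM (0.0288, 0.00785 to 0.0739), Fcna 3 UMIs (0.0779, 0.0160 to 0.228), Igf1 70.4 against 237 CPM (0.297, 0.193 to 0.436), Cbr2 206 against 651 CPM (0.316, 0.249 to 0.396) and Ltc4s 86.6 against 248 CPM (0.349, 0.238 to 0.494). With cells thinned, Ccl8 was at 0.0713, Fcna at 0.139, Cbr2 at 0.101, Ltc4s at 0.1998 and Igf1 at 0.640. Vsig4 (0.331), Colec12, Clec10a and Cd36 were lower as well. A single cell held 64.3% of the 28 Vsig4 UMIs in TAC-4w members, and the mean of per-cell CPM gave Vsig4 a ratio of 0.181. Mrc1 (0.905, 0.805 to 1.01) and Selenop (0.911, 0.841 to 0.985) stayed within 1.5-fold. TAC-4w members also carried fewer resident UMIs per cell than sham members, whose part in this comparison was not tested.

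Inflammatory, stress and cell-cycle lists were also below sham in TAC-4w. Inflammatory genes had 13 of 14 lower, among them the neutrophil chemoattractant Cxcl2 (931 against 2154 CPM, 0.432), Ccl3 (0.491) and Nfkbia (0.449), and the exception was Il1b at 1.19 (0.977 to 1.45). A single cell held 46.3% of its TAC-4w UMIs, and the ratio of Il1b was 0.639 with predicted doublets removed and 0.737 without cells of many neutrophil or red blood cell UMIs. In the other C1q-positive cells Cxcl2 had a ratio of 0.448, Nfkbia of 0.379 and Il1b of 0.489. Heat shock genes had 6 of 10 lower, with Hspa1a at 0.256 and Hspb1 at 0.0330, and immediate early genes 8 of 15, with Atf3 at 0.275, and their ratios in the other C1q-positive cells were 0.350, 0.0222 and 0.414. Interferon-induced genes had 6 of 10 lower, among them Ifi27l2a (0.349) and Irf7 (0.369, or 0.189 with cells thinned). Iron handling had 4 of 11 lower, Hmox1 at 0.371 among them, and Bach1 higher, clearance 1 of 14 lower and lipid-associated genes 3 of 8 lower. Monocyte genes had 1 each way of 6, and pan-macrophage markers had Ptprc and Cd14 higher and Aif1 lower of 12. All 8 proliferation genes were lower. Mki67 had 0 UMIs in TAC-4w against 135 CPM in sham, a ratio of up to 0.0739, and a UMI in 0 of 51 members (exact interval up to 6.98%) against 12.4%. With cells thinned to 2000 UMIs it was detected in 0 of 50 members (interval up to 7.11%) against 6.90% in sham, a share that lies within that interval. The limit on the ratio treats UMIs of the same cell as independent. Thinning also moved Top2a from 0.0263 to 0.308 and turned Cenpf from 0.115 to 1.47. A floor of 3 counts would be 5.88% of members with a UMI, or 8.12 CPM. The other C1q-positive cells of TAC-4w had a Mki67 level 1.02 times (0.826 to 1.24) that of sham.

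TAC-6w members had 534 genes (5.21%) higher and 2230 (21.7%) lower of 10254, and with at least 20 expected UMIs 386 (4.61%) higher and 1559 (18.6%) lower of 8379. The median log2 ratio was -0.17 over the latter, so that the lists are read beside it. Genes higher in members than in the other C1q-positive cells went both ways. Of the 10 furthest towards members, 7 had a ratio above 1 and 3 below, from 0.305 for Cxcl13 to 1.90 for Mmp9. Further ratios were 0.546 (0.431 to 0.683) for Chp2, 0.617 for Slc40a1 and 0.717 (0.680 to 0.755) for Mrc1, with Cbr2 at 1.08 (1.02 to 1.13), Ltc4s at 1.41 (1.31 to 1.52), Ccl24 at 1.49 (1.35 to 1.64), F13a1 at 0.859 (0.823 to 0.896) and Fcna at 0.746 (0.639 to 0.868). The members differed in score, with 10 or more resident UMIs in 200 of 521 TAC-6w members and 900 of 1387 sham members. At that score Fcna had 138 CPM in TAC-6w against 146 in sham, and F13a1 1408 against 1467. At 4 to 9 resident UMIs Fcna had 39.3 against 13.4 CPM, and F13a1 760 against 542. The part of score and depth in the ratios of this paragraph was not tested. Secreted factors had Apoe (1.52, 1.51 to 1.54) and Pdgfb higher and 0 lower of 22. Scavenger receptors had Stab1 higher (660 against 363 CPM, 1.82, 1.72 to 1.92) and Vsig4 (84.9 against 229 CPM, 0.371, 0.321 to 0.426), Cd36, Msr1 and Siglec1 lower of 16. The other C1q-positive cells had ratios of 1.47 for Apoe, 2.22 for Stab1 and 0.534 for Vsig4. The 10 genes of the MHC class II list summed to 1.04 times sham (1.03 to 1.05), with Cd83 higher of 9 compared.

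Among the 12 plotted lists, cell-cycle and interferon genes were furthest below sham in TAC-6w. Of the markers of other cell types, red blood cell (-6.42), endothelial (-2.78) and cardiomyocyte genes (-1.84), and the 1 T and NK cell marker (-4.06) and 1 platelet marker (-1.65) compared, had medians further down than interferon genes (-0.66). Proliferation genes had 13 of 15 lower, with a median log2 ratio of -2.42. Mki67 had 22.6 against 135 CPM (0.167, 0.126 to 0.218, or 0.268 with cells thinned, where Top2a went from 0.177 to 0.353) and was detected in 5.37% of members against 12.4% in sham and 14.9% in TAC-2w. With cells thinned to 2000 UMIs it was detected in 2.85%, 6.90% and 6.47%, against at most 0.342% of fibroblast-rule cells and 1.12% of B-cell-rule cells of any library thinned alike. With all UMIs these backgrounds were at most 0.959% and 2.12%. In the other C1q-positive cells Mki67 had a ratio of 0.291. Interferon-induced genes had 10 of 19 lower, among them Irf7 (0.363, 0.302 to 0.432, or 0.240 with cells thinned), Ifit1, Oasl2 (0.450) and Rtp4, and Isg15 (1.57, 1.31 to 1.87) and Cxcl9 higher. The Cxcl9 UMIs came from 7 members, 67.1% of them from 1, and its ratio of 5.42 was 0.136 with cells thinned. In the cells with a C1q sum under 3, Irf7 had a ratio of 0.414 and Oasl2 of 0.429.

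Inflammatory genes had 4 of 18 higher in TAC-6w members, Tnf (1.86, 1.64 to 2.11), Ccl3 (1.84), Ccl4 and Il6, and Ccl5 lower. Il6 had UMIs in 13 TAC-6w members and a ratio of 1.55. That ratio was 3.42 with predicted doublets removed, 4.76 with cells thinned and 3.74 without cells that carried fibroblast UMIs. Immediate early genes had 3 of 20 higher and 0 lower, transcription factors 4 of 20 higher, Cebpb (1.63, 1.57 to 1.70) among them, and Zeb2 lower. Lipid-associated genes had 3 of 15 higher, Trem2 (1.51, 1.36 to 1.67) and Spp1 among them, and 5 lower, among them Vim (0.529) and Lpl (0.577). A single cell held 73.2% of the Spp1 UMIs of TAC-6w members, and its ratio of 2.05 was 0.575 with cells thinned. Iron handling had Slc40a1 lower of 16, clearance 1 higher and 1 lower of 18, and heat shock 1 each way of 12. Monocyte genes had 3 of 10 lower, Ccr2 (0.627) among them, and pan-macrophage markers Cd14 higher of 12. The highest ranks went to Ccdc152, Cxcl9, A930007I19Rik, Gm49774, Ptafr and Gdf15, and, without the condition on other cells, to genes that include Cst6, Ccdc152, Snhg9 and Cxcl9, of which Cst6 had 0 UMIs left without cells that carried fibroblast UMIs. Ccdc152 (8.65) and Snhg9 (5.64) were also above sham in the cells with a C1q sum under 3, at 4.94 and 4.81. Ccdc152 overlaps Selenop in the RefSeq annotation. The lowest ranks were Mns1, Mucl1, Neil3, Sgo1, Ccna2 and Kif4, of which Ccna2, Sgo1, Neil3 and Kif4 act in the cell cycle or in DNA repair.

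**Figure D5:**
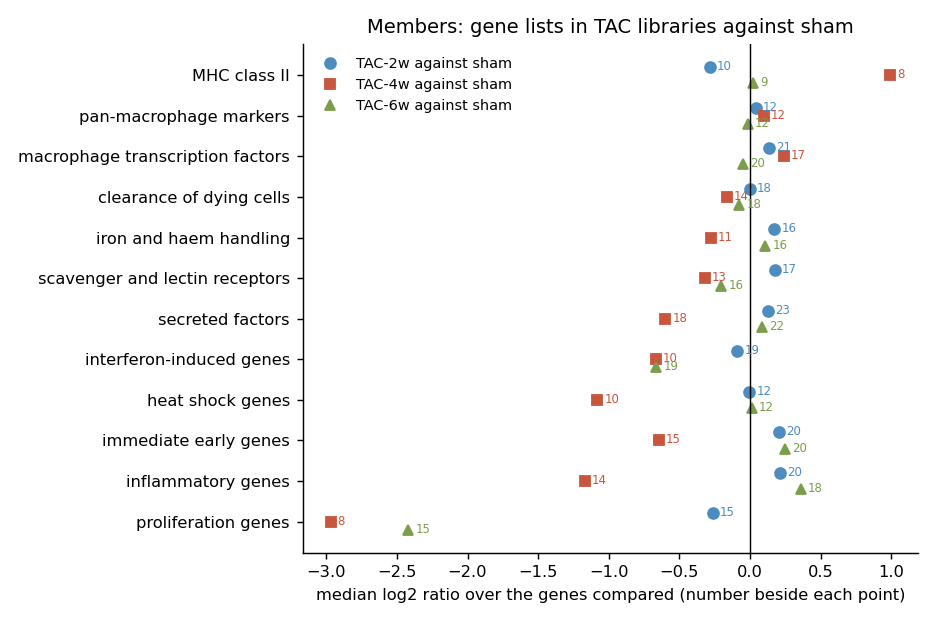
Median log2 ratio of TAC against sham members (horizontal axis) for 12 gene lists (vertical axis), over the genes with at least 20 expected UMIs in each sum, whose number stands beside each point. The MHC class II median was 0.99 in TAC-4w, -0.28 in TAC-2w and 0.02 in TAC-6w, and proliferation genes lay at -2.97 in TAC-4w and -2.42 in TAC-6w.

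RNA of other cell types was present in members and differed between libraries, and its part in the results was not tested. Fibroblast markers (6 genes, Gsn highest) summed to 4236, 3200, 122 and 3199 CPM in members, with 3 of the 6 at 0 in TAC-4w. Red blood cell genes (5, Hbb-bs highest) summed to 6058, 2889, 24538 and 58.3 CPM, and neutrophil markers (6, S100a9 highest) to 78.3, 59.3, 9599 and 134 CPM. In TAC-4w 4 members, 2 with at least 20 neutrophil UMIs and 2 with at least 100 red blood cell UMIs, together held 98.3% of the red blood cell UMIs and 96.7% of the neutrophil UMIs. Ngp, Camp, Wfdc21, S100a8 and Lcn2 led the ranks of TAC-4w without the condition on other cells. Cardiomyocyte markers summed to 410, 425, 103 and 146 CPM, B cell markers to 173, 203, 170 and 170 CPM, endothelial markers to 154, 252, 94.7 and 20.2 CPM, and T and NK cell markers to 64.5, 38.5, 40.6 and 3.97 CPM. Platelet markers stayed at or below 100.2 CPM and dendritic cell markers at or below 27.1 CPM. Monocyte genes summed to 1910, 1667, 2477 and 1791 CPM, with 3 of 17 at 0 in TAC-4w and in TAC-6w. In 1 alternative, cells with at least 20 neutrophil UMIs or at least 100 red blood cell UMIs were left out of all libraries. The MHC class II median of TAC-4w members was then 0.97 on the log2 scale and that of proliferation genes -2.81. Cells with RNA of B cells or of the other types were not left out there.

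The spatial sections gave a further reading of the same genes, over whole tissue, where fewer cells and less RNA per cell cannot be told apart. The sections held 1676, 2063, 1228 and 2193 spots in the same order. C1qa had 74.7, 68.1, 153 and 109 CPM, and its ratio to sham was 0.911, 2.05 and 1.46 in the TAC sections. Folr2 had 14.9, 14.3, 13.7 and 15.6 CPM, with ratios of 0.966 (0.851 to 1.10), 0.919 (0.800 to 1.06) and 1.05 (0.930 to 1.19). When mitochondrial, ribosomal and rRNA-like genes were left out of the totals, the ratios of Folr2 were 0.842, 0.788 and 0.923. Lyve1, which lymphatic vessels share, had 18.0, 16.6, 21.8 and 11.6 CPM, with ratios of 0.921 (0.821 to 1.03), 1.21 (1.075 to 1.36) and 0.643 (0.568 to 0.729). Timd4 was sparse, with 40, 64, 76 and 86 UMIs, and its ratios were 0.853, 1.55 (1.04 to 2.33) and 1.16, or 0.744, 1.33 and 1.01 with the same genes left out of the totals. Cd163 had 14.5, 11.9, 27.7 and 12.4 CPM, with a ratio of 1.92 (1.70 to 2.17) in TAC-4w. C1qa was highest in the TAC-4w section, whereas C1q-positive cells were the smallest share of cells in the TAC-4w library. Relative to the C1q sum, the ratios in TAC-4w were 0.606 for Lyve1, 0.460 for Folr2, 0.774 for Timd4 and 0.960 for Cd163, and in TAC-6w 0.437, 0.715, 0.786 and 0.585. H2-Aa was at 2.74 times (2.60 to 2.90) its sham level in the TAC-4w section and at 2.22 times (2.10 to 2.34) in TAC-6w. With mitochondrial, ribosomal and rRNA-like genes left out of the totals, these ratios of H2-Aa were 2.35 and 1.94. Those of C1qa were then 0.795, 1.75 and 1.28 in TAC-2w, TAC-4w and TAC-6w.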

How the data were processed

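Raw UMI counts per gene and barcode were deposited by the authors as filtered matrices of 32285 genes for 4 scRNA-seq libraries and 4 Visium sections. The matrix headers name cellranger 6.0.0 and spaceranger 1.2.0, whereas the submitters' processing notes name Cell Ranger 7.0.0, Space Ranger 1.3.1 and mm10. Barcodes with 200 to 6000 genes, 500 to 30000 UMIs and under 15% mitochondrial UMIs were kept. Predicted doublets were kept in the main analysis and removed in an alternative. The members, the gene lists and the tests were chosen with earlier results of these data known.

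Counts were summed per library and class. Members were compared with the other C1q-positive cells by edgeR 4.0.16 (quasi-likelihood test, library as block, R 4.3.3), with the rule genes left out. On simulated counts for this comparison (10221 genes, 200 changed) 94.8% of 2-fold and 100% of 4-fold changes were found, and 10.5% of the calls were false. TAC libraries were compared with sham by ratios of CPM with exact conditional intervals. UMIs of members summed to 12956588, 16004914, 369425 and 2520015 (sham, then 2, 4 and 6 weeks of TAC), where 3 UMIs are 0.232, 0.187, 8.12 and 1.19 CPM. Named genes were the listed genes, the 10 furthest in each direction between the classes with the same sign in all libraries, the 6 largest and 6 smallest TAC ratios among genes at least 2 times higher in members than in cells with a C1q sum under 3, and the 5 largest without that condition. Some genes that this rule names are not reported here. Hist1h2ap and the haemoglobin genes also have near-identical copies. Alternatives were other normalisation (RLE), DESeq2 1.42.0, no filter on low counts, other cuts of the rule, thinning, doublet removal, and leaving out fibroblast-UMI cells, features or 1 library. Python 3.11.15, scanpy 1.11.5, scipy 1.17.1 and matplotlib 3.10.9 were used.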

Additional observations from a re-analysis of the deposited data

How the results depend on the processing

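The count of 702 genes higher in members was 428, of 7469 tested, with cells thinned to 2000 UMIs. It was 316 to 858 when 1 library was left out (377 without sham, 316 without TAC-2w, 858 without TAC-4w, 420 without TAC-6w). The count of 788 lower was 328 to 1152 (472, 328, 1152 and 612 in the same order). DESeq2 gave 475 and 624. The classes were compared within libraries throughout. No paired analysis was possible because each condition has 1 library, in the comparisons of TAC with sham. The share of members in sham was 58.3% thinned, 80.0% and 68.7% with a resident cut of 1 or 3 UMIs, and 70.9% with under 5% mitochondrial UMIs. Thinned and with a resident cut of 1 or 3 UMIs, it was 66.1%, 87.1% and 77.5% in TAC-2w. In the same order it was 21.3%, 42.3% and 28.2% in TAC-4w, and 48.1%, 68.1% and 50.3% in TAC-6w. Lower genes in TAC-2w members (268 of 10708) were 159 with predicted doublets removed and 80 without cells that carried fibroblast UMIs. Thinned, they were 76 of the 5221 genes tested. In TAC-4w the 1644 higher and 2893 lower of 10257 genes were 886 and 1558 of the 4699 tested when thinned. They were 203 and 470 of 2465 with at least 20 expected UMIs, and 695 and 886 of 10257 with an interval beyond 1. In TAC-6w the 534 higher and 2230 lower of 10254 genes were 203 and 1014 of the 4701 tested when thinned. Fewer genes were tested when thinned, so the counts alone do not show a fall in share. The 20 expected UMIs, the interval and the removal of cells with many neutrophil or red blood cell UMIs were chosen after seeing the data. With mitochondrial, ribosomal and rRNA-like genes left out of section totals, the ratios in TAC-2w, TAC-4w and TAC-6w were 0.803, 1.04 and 0.563 for Lyve1, 0.842, 0.788 and 0.923 for Folr2, and 0.719, 1.65 and 0.754 for Cd163.

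Direction turned for Fabp4 between the classes (-0.234 with doublets removed, -0.469 thinned). The TAC ratios listed here as turned were past 1.5-fold in the main run. Thinning turned those of Cxcl9 (0.276 in TAC-2w, 0.136 in TAC-6w) and Ecrg4 (0.896, TAC-2w). It also turned Ccl5 (1.31), Cenpf (1.47), Ptger2 (0) and A930007I19Rik (1.54) in TAC-4w, and Spp1 (0.575) and Col27a1 (0.756) in TAC-6w. Among ratios past 1.5-fold, doublet removal turned S100a8 (1.03, TAC-2w), Fabp4 (1.68) and Ccl5 (1.01) in TAC-4w. Leaving out cells with fibroblast UMIs turned Ecrg4 (0.484, TAC-2w) and Cst6 (0, TAC-6w), and leaving out cells with many neutrophil or red blood cell UMIs turned Wfdc21 (0, TAC-4w). The causes were not tested. Of 1345 values for named genes between the classes 1299 kept their direction and side of the threshold and 44 lost the call. Of 2357 gene ratios against sham 1959 stayed within the counting interval, 383 moved and 15, all past 1.5-fold in the main run, turned. Ratios nearer 1 that crossed it were not counted as turned. In TAC-4w Il6 went from 0.731 to 2.85 with predicted doublets removed and to 6.46 thinned. Il1b went from 1.195 to 0.639 there with predicted doublets removed. The 51 TAC-4w members limit all values for that library. Calls between the classes were lost without sham, without TAC-2w and without TAC-6w for Ccl2, Csf1r, Tgfb1 and Lyz2 in at least 1 of these settings each, for Cd36 and Itgam without sham or TAC-2w, and for Retnlg without TAC-4w or TAC-6w.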
